A study of Mus musculus with 7 samples.

Results

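The 75 genes described here encode parts of the motile cilium, the beating hair of the ependymal cells that line the brain's ventricles. They are the protein-coding genes whose symbols match a fixed pattern (Cfap, Dnah, Dnai or Dnaic, Rsph, Tekt, Dnaaf and Drc genes with a number) or are Foxj1, Ccdc39, Ccdc40, Hydin, Spag6l, Spag16 or Spag17. They were picked out of 55384 listed genes by symbol, and this choice was made with earlier results of these data known. Of the 75, 73 passed the filter on low counts, and the other two, Cfap97d1 and Rsph6a, stayed at or below 0.363 CPM in every library (CPM is the depth-scaled count, with TMM scaling). The 7 libraries hold RNA pulled down with HA-tagged ribosomes from punches of the AVPV, the anteroventral periventricular nucleus, which lies against the third ventricle. The 3 E2 libraries came from estradiol-treated females and the 4 GDX libraries from ovariectomized females without estradiol. Every mouse in both groups was a C57BL/6 female with Kiss1-driven Cre and HA-tagged Rpl22 (Kiss1Cre+/Rpl22HA+/+), so the tag marks cells that have, or once had, active Kiss1. Each library pooled 4 brains. The estradiol dose and duration, the animals' ages and whether the E2 females were ovariectomized as well are not given in the sample labels. An unprecipitated sample was not analysed here, so enrichment by the pulldown could not be computed.

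A motile cilium is a ring of paired microtubules around a central pair. Axonemal dynein motors walk between the outer doublets, nexin links and radial spokes hold and time their movement, and the forkhead factor Foxj1 switches on many of the genes for it. In the brain such cilia are the mark of ependymal cells, whose beating moves cerebrospinal fluid along the ventricle wall, whereas a neuron has a single immotile primary cilium built with other transport proteins. Many genes with motile-cilium names are also read at some level in cells without motile cilia, Cfap20 being a known example.

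Library totals ran from 29207544 to 36213127 counts. Kiss1 itself was at 381, 485 and 379 CPM in E2 libraries, against 52.1, 44.5, 56.0 and 113.5 CPM in GDX libraries, a count that shares exons with an overlapping gene. In the labels GDX replicates 1 to 3 carry pulldown numbers 1 to 3, E2 replicates 1 to 3 carry 4 to 6, and GDX replicate 4 carries 11. Among the libraries numbered 1 to 6, group and order of pulldown number cannot be told apart. Calls that were lost without GDX replicate 4 are named.

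As a sum, motile cilia genes were lower in E2 than in GDX libraries, and few single genes passed the test. Summed over the 75 genes, the level was 914, 976 and 1060.4 CPM in E2 libraries, against 1229, 1083, 1177 and 1363 CPM in GDX libraries. Every E2 library lay below every GDX library, with means of 983 ± 73.3 CPM (SD, n = 3) in E2 and 1213 ± 117 CPM (SD, n = 4) in GDX, an E2 over GDX ratio of 0.811. The 10 genes with the highest mean CPM carried a large share of this sum, at 512, 496 and 497 CPM in E2 libraries, against 498, 523, 551 and 529 CPM in GDX libraries, with a ratio of 0.955 and overlapping groups. The other 65 summed to 402, 479.7 and 563 CPM in E2 libraries, against 731, 559, 626 and 834 CPM in GDX libraries, with a ratio of 0.70, and E2 replicate 3 lay above GDX replicate 2. The groups were thus separate in the sum of all 75 but in neither of these portions. In RNA pulled down from tissue punches, 3 readings cannot be told apart. They are fewer cells of a type, less RNA per cell, and less RNA of untagged cells carried along. None of the 3 was tested. By the edgeR quasi-likelihood test with Benjamini-Hochberg adjustment over all 18282 genes tested, 8 of the 73 tested genes fell (adjusted p under 0.05), none rose and 65 did not pass. Over all genes tested 1.33% fell, 2.55% rose and 3.88% did either. At an unadjusted p under 0.05, 32 of the 73 were lower, against 8.88% of all genes tested, and 2 were higher. The 8 that fell were Drc3, Drc7, Ccdc39, Dnah10, Cfap45, Cfap53, Cfap126 and Cfap206. The fitted log2 fold change, E2 over GDX, was below 0 for 62 of the 73 genes, against 49.2% of all genes tested, and its median was -0.541, against 0.00403 over all genes tested. In 20 of the 73 genes all E2 libraries lay below all GDX libraries, as in 8.04% of all genes tested, and in 2 they lay above, as in 8.42% of all genes tested. The number of calls rests on few libraries. It was 1 without E2 replicate 1 or E2 replicate 2 and 2 without GDX replicate 1. With GDX replicates 1 and 4 both left out it was 3, and the median was -0.312. It was 21, all lower, with the DESeq2 Wald test, which called 725 of all 18282 genes tested lower.

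**Figure D1:**
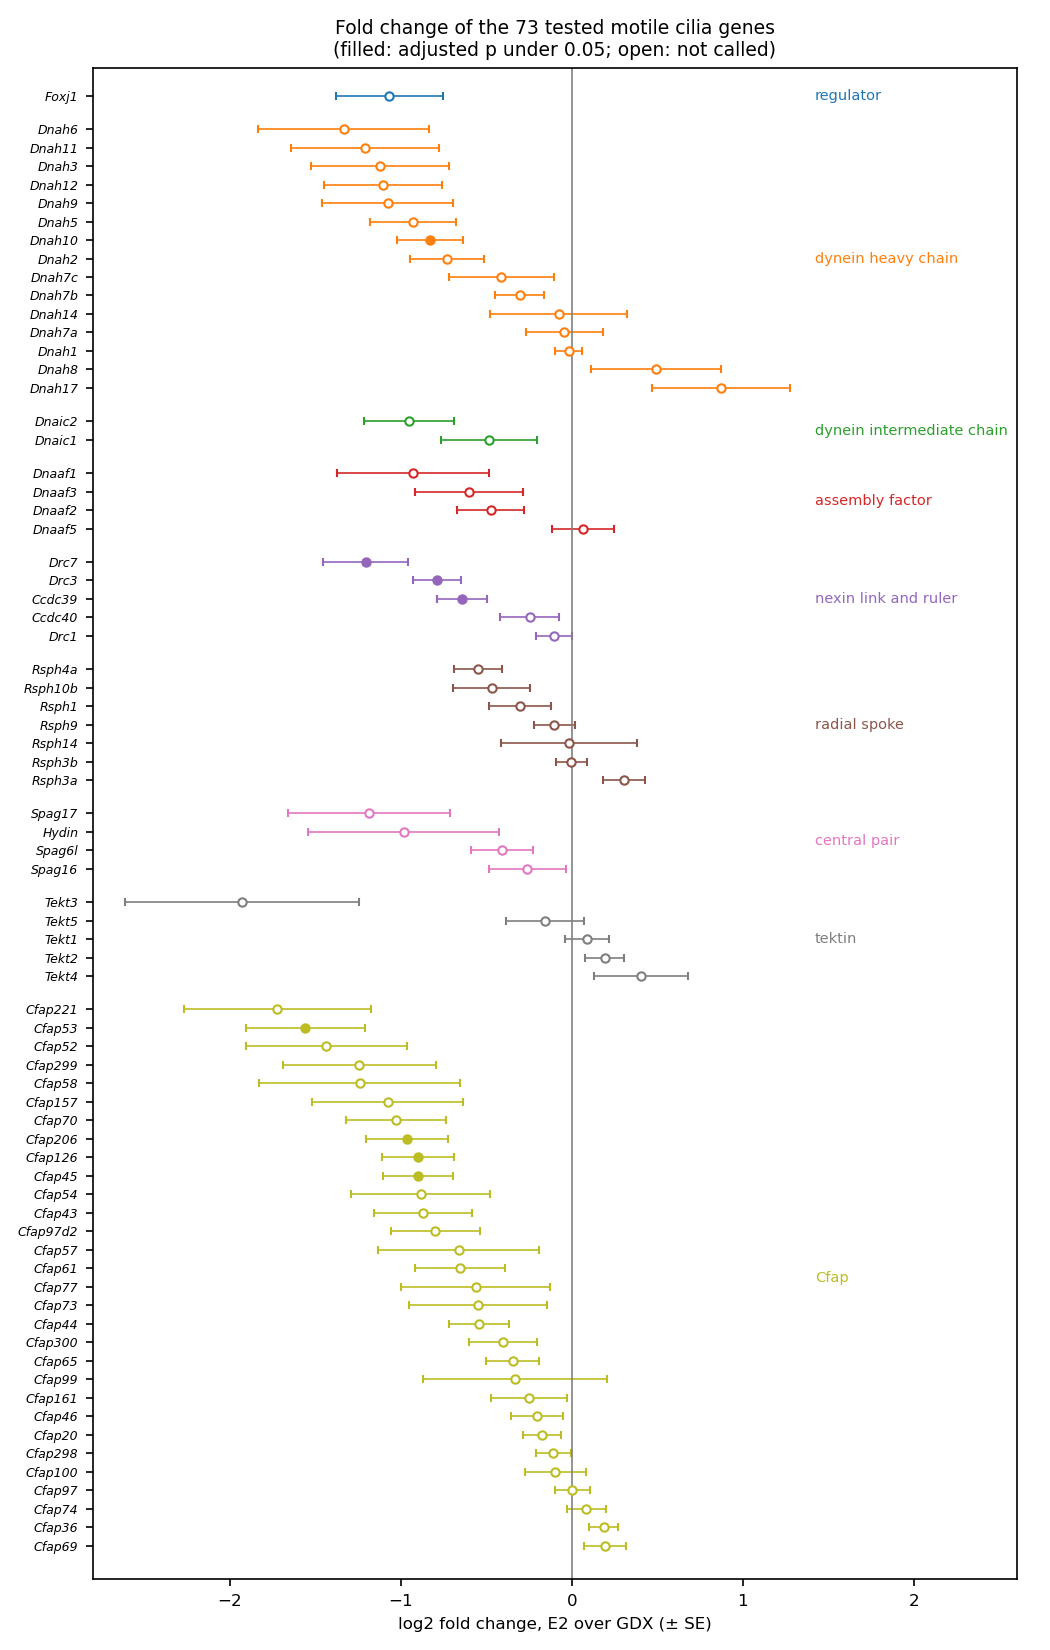
Log2 fold change, E2 over GDX, with its standard error (x axis) of the 73 tested motile cilia genes (y axis), grouped by role; filled points have an edgeR adjusted p under 0.05. The 8 filled points all lie left of 0, and the widest spread within a role is seen among dynein heavy chains and tektins.

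Promoter windows are shown here because RFX factors, which work with Foxj1, bind a palindromic X-box near the start of ciliary genes. RefSeq windows on GRCm38.p6, from 250 bases before to 50 after a start site, were found for 62 of the 75 genes, as 69 windows of 32851. Both strands were searched for 12 spellings. The loose X-box, spelled as GTNNC, any 4 bases and GNAAC, was in 16 of the 69 windows (23.2%), against 3.83% of all windows. The X-box part GTTGCC was in 27 (39.1%), against 12.5%. GTTGCC followed by any 2 bases and GG was in 9 (13.0%), against 2.25%, and GTTGCC followed directly by ATGG in 3 (4.35%), against 0.563%. GTNNCC, any 2 bases and GGNAAC was in 5 (7.25%), against 1.29%, and GTTGCC, any 3 bases and GCAAC in 3 (4.35%), against 0.149%. GTTNCC, any 2 bases and GGNAAC was in 1 (1.45%), against 0.451%, and the same with GTTGCC first in 1 (1.45%), against 0.298%. These 8 overlap each other in part. The forkhead spelling TGTTTAC was in 4 windows (5.80%), against 3.65%, TGTTTGT in 2 (2.90%), against 6.61%, and the looser TGTTTNC, which contains the first of them, in 22 (31.9%), against 20.5%. The estrogen response element, as GGTCA, any 3 bases and TGACC, was in none, against 0.0700% of all windows. A match is a description of these letters and not a binding site. The loose X-box was in the windows of 3 of the 7 called genes that have one, Cfap206 at chr4:34730157-34730456 (minus strand), Cfap45 at chr1:172520880-172521179 (plus strand) and Drc7 at chr8:95054853-95055152 (plus strand). It was also in the window of Hydin at chr8:110266727-110267026 (plus strand) and of Tekt1 at chr11:72361833-72362132 (minus strand), neither of which passed the test. In Cfap206, Drc7 and Tekt1 the match is to the reverse complement, GTTNC, any 4 bases and GNNAC, and in Cfap45 and Hydin to the spelling as given. In Drc7 the match begins at the start site. The 5 windows follow 5′ to 3′ on the gene's strand, with the loose X-box in capitals.
Cfap206: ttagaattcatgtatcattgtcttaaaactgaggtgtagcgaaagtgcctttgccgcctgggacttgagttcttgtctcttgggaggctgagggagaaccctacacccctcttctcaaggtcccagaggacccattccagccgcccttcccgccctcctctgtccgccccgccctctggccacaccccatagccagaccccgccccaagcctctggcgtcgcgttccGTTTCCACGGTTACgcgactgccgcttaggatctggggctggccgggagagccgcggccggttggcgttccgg
Cfap45: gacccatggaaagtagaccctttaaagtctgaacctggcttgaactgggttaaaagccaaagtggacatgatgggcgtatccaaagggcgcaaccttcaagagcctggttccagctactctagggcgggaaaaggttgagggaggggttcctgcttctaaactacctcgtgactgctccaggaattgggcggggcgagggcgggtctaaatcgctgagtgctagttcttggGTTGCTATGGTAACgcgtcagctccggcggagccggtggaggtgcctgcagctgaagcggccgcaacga
Drc7: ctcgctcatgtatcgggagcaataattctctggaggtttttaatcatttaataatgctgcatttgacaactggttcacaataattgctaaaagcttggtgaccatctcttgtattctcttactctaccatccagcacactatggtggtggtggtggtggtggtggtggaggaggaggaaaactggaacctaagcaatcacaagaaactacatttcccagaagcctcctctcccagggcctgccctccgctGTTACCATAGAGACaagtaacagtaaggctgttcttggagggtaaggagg
Hydin: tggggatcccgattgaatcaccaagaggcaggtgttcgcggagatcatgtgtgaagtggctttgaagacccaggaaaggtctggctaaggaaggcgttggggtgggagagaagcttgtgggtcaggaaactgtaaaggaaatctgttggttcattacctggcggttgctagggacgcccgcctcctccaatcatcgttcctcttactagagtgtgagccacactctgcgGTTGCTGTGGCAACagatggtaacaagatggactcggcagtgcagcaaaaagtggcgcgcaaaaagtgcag
Tekt1: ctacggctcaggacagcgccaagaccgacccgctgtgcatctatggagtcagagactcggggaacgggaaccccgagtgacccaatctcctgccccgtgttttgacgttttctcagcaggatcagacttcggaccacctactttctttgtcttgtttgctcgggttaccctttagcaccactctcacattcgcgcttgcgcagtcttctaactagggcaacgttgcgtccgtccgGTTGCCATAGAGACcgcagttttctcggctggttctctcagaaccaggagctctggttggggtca

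Foxj1 (ENSMUSG00000034227, chromosome 11, 116330704 to 116335399, GRCm38), the regulator that marks cells with motile cilia, was at 9.16, 15.1 and 19.8 CPM in E2 libraries, against 33.7, 20.2, 28.1 and 40.8 CPM in GDX libraries. The groups did not overlap, but E2 replicate 3 and GDX replicate 2 nearly met. The mean was 14.7 ± 5.31 CPM (SD, n = 3) in E2 and 30.7 ± 8.73 CPM (SD, n = 4) in GDX, and the log2 fold change of -1.07 ± 0.31 (SE) did not pass (edgeR adjusted p = 0.13). The DESeq2 Wald test gave an adjusted p of 0.000865 and edgeR without a low-count filter 0.0206.

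Dynein heavy chains are the motor subunits of the outer and inner arms, and 1 of 15 fell, against 1.33% of all genes tested. Dnah10 (ENSMUSG00000038011, chromosome 5, 124725085 to 124834308), an inner arm motor, was at 9.46, 12.9 and 15.2 CPM in E2 libraries, against 24.4, 18.2, 18.9 and 27.5 CPM in GDX libraries. All E2 libraries were below all GDX libraries, with a log2 fold change of -0.83 ± 0.20 (SE, edgeR adjusted p = 0.0379). Dnah9, an outer arm motor, was at 8.11, 12.1 and 20.02 CPM in E2 libraries, against 33.4, 17.6, 23.4 and 38.5 CPM in GDX libraries, and its groups overlapped (-1.08 ± 0.38, edgeR adjusted p = 0.218). Dnah6 had the lowest fold change of the role, at 5.67, 9.92 and 20.3 CPM in E2 libraries, against 34.1, 19.8, 23.1 and 43.2 CPM in GDX libraries (-1.33 ± 0.50, edgeR adjusted p = 0.254). In Dnah9 and Dnah6, E2 replicate 1 was lowest and GDX replicate 4 highest, and E2 replicate 3 exceeded GDX replicate 2. Dnah1, known best from the sperm flagellum, had close values in the groups, at 102, 87.6 and 98.7 CPM in E2 libraries, against 94.5, 100.1, 93.4 and 102 CPM in GDX libraries (-0.02 ± 0.08, edgeR adjusted p = 0.945). Its direction flipped to 0.000920 with the replicate number as a block, and without E2 replicate 2 (0.0442) or GDX replicate 4 (0.00301). Dnah17, another motor of the sperm tail, was the highest fold change of the role at 2.37, 2.41 and 2.44 CPM in E2 libraries, against 1.17, 1.91, 1.62 and 0.558 CPM in GDX libraries (0.87 ± 0.41, edgeR adjusted p = 0.307). Dnah7a, Dnah7b and Dnah7c are near-identical genes on chromosome 1 among which counts may be split, and none of them passed. Over the 15 motors 13 had a log2 fold change below 0, against 49.2% of all genes tested, and their median was -0.728.

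The 2 intermediate chains, which anchor outer arm motors, were both below 0. Dnaic2 was at 5.46, 8.67 and 12.5 CPM in E2 libraries, against 20.3, 12.9, 16.6 and 18.9 CPM in GDX libraries. The groups did not overlap, and the log2 fold change of -0.95 ± 0.26 (SE) did not pass (edgeR adjusted p = 0.0883), although it did with DESeq2 (0.00449), limma-voom (0.0431), no low-count filter (4.19e-06) and without E2 replicate 3 (0.0281). Dnaic1 was at 3.95, 6.46 and 7.04 CPM in E2 libraries, against 9.30, 4.96, 7.88 and 10.4 CPM in GDX libraries, with overlapping groups (-0.49 ± 0.28, adjusted p = 0.432). Dynein arms are built in the cytoplasm by assembly factors before they enter the cilium, and none of 4 factors passed, in edgeR or in DESeq2. At an unadjusted p under 0.05, 1 was lower, against 8.88% of all genes tested. Dnaaf1 had a log2 fold change of -0.93 ± 0.45 (adjusted p = 0.326), Dnaaf3 -0.60 ± 0.32 (0.38), Dnaaf2 -0.47 ± 0.20 (0.243) and Dnaaf5 0.07 ± 0.18 (0.903). The sign for Dnaaf5 turned without E2 replicate 3 (-0.00473) or GDX replicate 3 (-0.0604). Dnaaf1 shares 20.7% and Dnaaf2 32.7% of its exon bases with a gene on the other strand, which leaves their values uncertain in unstranded libraries.

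Nexin links tie neighbouring doublets, and Ccdc39 with Ccdc40 forms the ruler that spaces links and arms. Of these 5 genes 3 fell, against 1.33% of all genes tested. Drc3 (ENSMUSG00000056598, chromosome 11, 60353329 to 60394341) was at 13.8, 15.8 and 16.0 CPM in E2 libraries, against 27.2, 22.2, 23.8 and 31.6 CPM in GDX libraries. The E2 libraries were tightly grouped and all below GDX, with a log2 fold change of -0.79 ± 0.14 (SE, edgeR adjusted p = 0.00786). It passed in 14 of 15 other fits and failed only without E2 replicate 1 (adjusted p = 0.0568). Drc7 (ENSMUSG00000031786, chromosome 8, 95055103 to 95078141), whose promoter window is printed above, was at 3.55, 5.18 and 5.75 CPM in E2 libraries, against 10.4, 8.22, 10.6 and 15.3 CPM in GDX libraries (-1.21 ± 0.25, edgeR adjusted p = 0.0175). GDX replicate 4 held the highest value, and without it the log2 fold change was -1.01 (adjusted p = 0.0162). The call was lost without E2 replicate 1 (0.0995), without E2 replicate 2 (0.0649) and without both GDX replicates 1 and 4 (0.0514). Ccdc39 (ENSMUSG00000027676, chromosome 3, 33812362 to 33844310) was at 25.2, 19.9 and 16.1 CPM in E2 libraries, against 31.1, 35.7, 30.4 and 30.2 CPM in GDX libraries (-0.64 ± 0.15, edgeR adjusted p = 0.0305). Its order of libraries differed from that of the other called genes of this role, with E2 replicate 1 the highest E2 library and GDX replicate 4 the lowest GDX library. Ccdc39 overlaps Ttc14 over 1256 bases on the opposite strand (59.5 CPM in E2, 53.0 CPM in GDX), so its level is uncertain, and it failed without E2 replicate 2 (0.134) or 3 (0.115) or GDX replicate 1 (0.0769) or 2 (0.0809). Its partner Ccdc40 was at 14.8, 17.9 and 23.3 CPM in E2 libraries, against 22.6, 18.1, 20.8 and 27.1 CPM in GDX libraries, with overlapping groups (-0.25 ± 0.17, adjusted p = 0.54). Drc1 had -0.10 ± 0.10 (adjusted p = 0.701).

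**Figure D2:**
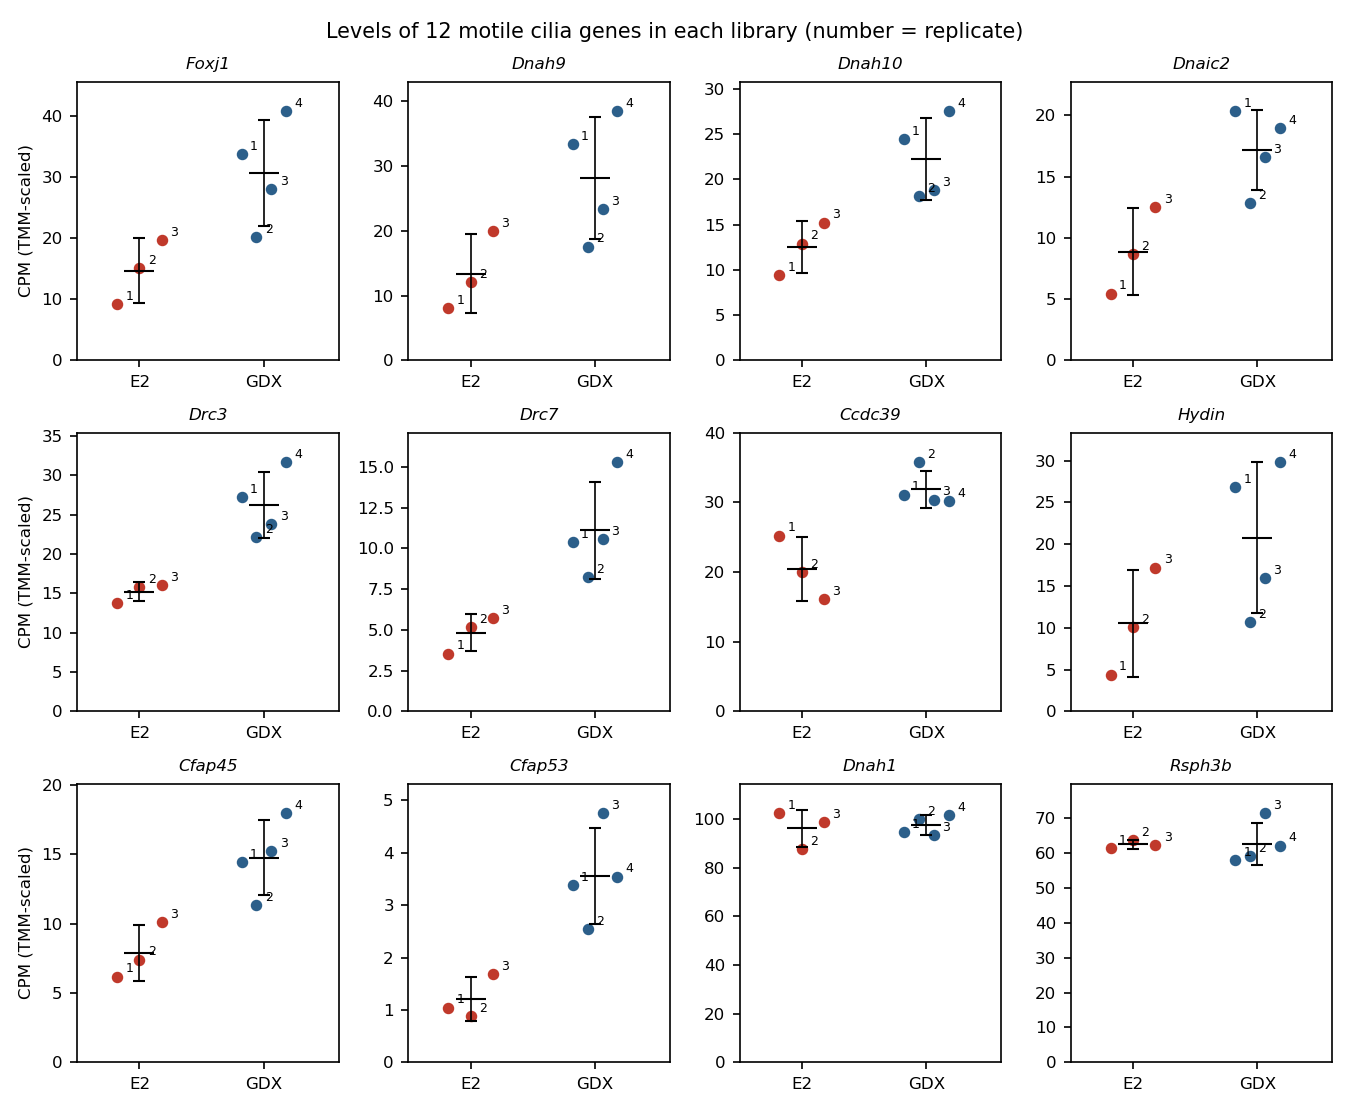
Level in CPM (y axis, from 0) of 12 motile cilia genes in the 3 E2 (red) and 4 GDX (blue) libraries; points are libraries labelled by replicate number, bars are mean and SD. Drc3 shows separated, compact groups (13.8 to 16.0 CPM in E2, 22.2 to 31.6 CPM in GDX), Dnah9 and Hydin show wide groups that overlap, and Dnah1 and Rsph3b have close means.

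Radial spokes reach from the doublets to the central pair, and none of the 7 tested spoke genes passed. At an unadjusted p under 0.05, 1 was lower, against 8.88% of all genes tested, and 1 was higher, against 1440 of 18282. DESeq2 called 1, against 1400 of all 18282 genes tested. Rsph4a, a spoke head subunit, was nearest, at 19.5, 20.9 and 24.5 CPM in E2 libraries, against 31.8, 27.6, 28.2 and 38.8 CPM in GDX libraries. Its groups did not overlap (-0.55 ± 0.14, edgeR adjusted p = 0.0526), and it passed with library sizes alone (0.0352), with DESeq2 (0.00733), with limma-voom (0.0224), with no low-count filter (0.000948) or a 5 CPM minimum (0.0416) and without GDX replicate 3 (0.0395). Rsph3a had the reverse order of groups, at 24.8, 27.6 and 26.1 CPM in E2 libraries, against 17.8, 20.3, 24.6 and 22.0 CPM in GDX libraries (0.30 ± 0.12, adjusted p = 0.237). Its near-identical copy Rsph3b, with which counts may be shared, was at 61.3, 63.8 and 62.3 CPM in E2 libraries, against 58.0, 59.0, 71.3 and 62.1 CPM in GDX libraries (-0.00 ± 0.09, adjusted p = 0.991). The sign for Rsph3b turned with limma-voom (0.0391) and without E2 replicate 1 (0.00981) or GDX replicate 3 (0.0681). Rsph9, another spoke head subunit, had -0.10 ± 0.12 (adjusted p = 0.755), with the sign turned without GDX replicate 3 (0.0229).

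The central pair genes were all below 0, against 49.2% of all genes tested, and none of 4 passed, in edgeR or in DESeq2. At an unadjusted p under 0.05, 2 were lower, against 8.88% of all genes tested. Hydin, a large protein of the central pair whose loss causes hydrocephalus in mice, was at 4.41, 10.1 and 17.2 CPM in E2 libraries, against 26.8, 10.7, 15.9 and 29.8 CPM in GDX libraries. Within E2 the highest library held over 3 times the lowest, the groups overlapped, and the log2 fold change of -0.98 ± 0.56 did not pass (edgeR adjusted p = 0.46). Spag17 had -1.19 ± 0.47 (adjusted p = 0.232, and 0.0207 with no low-count filter), Spag6l -0.41 ± 0.18 (0.28) and Spag16 -0.26 ± 0.22 (0.639). Spag17 shares 820 exon bases with Wdr3 on the opposite strand.

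Tektins, rod proteins inside the doublet wall, stood apart from the other roles in having a median log2 fold change above 0 (0.0872), a difference that was not tested. None of 5 passed, in edgeR or in DESeq2, with 1 lower at an unadjusted p under 0.05, against 8.88% of all genes tested. Tekt1 was at 22.6, 24.9 and 23.4 CPM in E2 libraries, against 23.9, 17.8, 25.0 and 22.2 CPM in GDX libraries (0.09 ± 0.13, edgeR adjusted p = 0.815; -0.00552 without GDX replicate 2). Tekt2 was at 21.2, 23.9 and 21.1 CPM in E2 libraries, against 18.6, 19.8, 21.1 and 17.7 CPM in GDX libraries (0.19 ± 0.11, adjusted p = 0.443). Tekt4 had 0.41 ± 0.27 (0.515) and Tekt5 had -0.16 ± 0.23 (0.813; 0.0204 without E2 replicate 1). Tekt3 had the lowest fold change of all 73 genes, at 0.0925, 0.264 and 0.496 CPM in E2 libraries, against 1.45, 0.805, 0.467 and 1.62 CPM in GDX libraries, and did not pass (-1.93 ± 0.68, adjusted p = 0.17). Its lowest library, E2 replicate 1, was at the floor of 3 counts.

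The Cfap genes, named for cilia and flagella association, are a mixed group, and 4 of 30 tested fell, against 1.33% of all genes tested. Cfap53 (ENSMUSG00000035394, chromosome 18, 74283090 to 74359986), a protein of the doublet lumen, was at 1.05, 0.890 and 1.69 CPM in E2 libraries, against 3.38, 2.55, 4.75 and 3.55 CPM in GDX libraries (-1.56 ± 0.35, edgeR adjusted p = 0.0271). Cfap45 (ENSMUSG00000026546, chromosome 1, 172520801 to 172545870), also in the doublet lumen, was at 6.20, 7.42 and 10.1 CPM in E2 libraries, against 14.5, 11.4, 15.2 and 17.96 CPM in GDX libraries (-0.90 ± 0.21, edgeR adjusted p = 0.0319). Cfap126 (ENSMUSG00000026649, chromosome 1, 171113918 to 171126967), also called Flattop, was at 5.02, 6.13 and 5.19 CPM in E2 libraries, against 9.22, 7.61, 12.8 and 11.1 CPM in GDX libraries (-0.90 ± 0.21, edgeR adjusted p = 0.035). In these 3 genes the E2 libraries lay below all GDX libraries, and the highest GDX library was replicate 3 for Cfap53 and Cfap126 and replicate 4 for Cfap45. Cfap206 (ENSMUSG00000028294, chromosome 4, 34688559 to 34730206), a protein at the spoke base, was at 3.85, 5.47 and 4.62 CPM in E2 libraries, against 9.22, 7.35, 7.34 and 12.4 CPM in GDX libraries (-0.96 ± 0.24, edgeR adjusted p = 0.0467). Over the other fits adjusted p reached 0.143 for Cfap53, 0.167 for Cfap45, 0.168 for Cfap126 and 0.226 for Cfap206, and 0.167 for Dnah10 among the dyneins. Each of these 5 calls was lost without E2 replicate 1, without E2 replicate 2 and without GDX replicate 1. The call of Cfap206 was also lost without GDX replicate 4 (adjusted p = 0.0656), GDX replicate 2 (0.0503) or E2 replicate 3 (0.15). Cfap126 also failed without GDX replicate 3 (0.0624) or E2 replicate 3 (0.131), and Cfap53 (0.0567) and Cfap45 (0.0503) without GDX replicate 3.

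The other 26 tested Cfap genes did not pass, and the most abundant had close values in the groups. Cfap36 was at 110.5, 112 and 97.8 CPM in E2 libraries, against 87.2, 93.2, 102 and 92.8 CPM in GDX libraries (0.19 ± 0.08, edgeR adjusted p = 0.28). Cfap20, of the doublet's inner junction, was at 49.4, 52.0 and 50.1 CPM in E2 libraries, against 47.8, 59.5, 67.3 and 53.5 CPM in GDX libraries (-0.18 ± 0.11, adjusted p = 0.487). Cfap97 had 0.00 ± 0.10 (adjusted p = 0.992), with a direction that turned in 8 of 15 other fits, and Cfap69 0.20 ± 0.12 (0.476). Cfap221, of the central pair, had the lowest fold change of the Cfap genes, -1.72 ± 0.55, and did not pass (adjusted p = 0.122; 0.0198 with no low-count filter and 0.0335 with DESeq2).

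Levels between genes are comparable only per length, as CPM per kb of exon. On that scale the 10 highest of the 75 genes, averaged over all 7 libraries, were Cfap36 (36.2), Rsph9 (24.9), Cfap298 (22.2), Rsph3b (20.1), Tekt1 (14.1), Rsph1 (13.0), Cfap20 (12.2), Tekt2 (10.8), Drc1 (9.81) and Foxj1 (9.08). The limit of 10 was set after the values were seen. None of these 10 passed the test in edgeR, although DESeq2 called Foxj1, and their median log2 fold change was -0.103. The upper 38 genes, at 1.68 CPM per kb or more, had a median log2 fold change of -0.276, and the 35 tested genes among the lower 37 had -0.828, with 6 and 2 of the calls. Foxj1 was at -1.07 and the other 9 lay between -0.30 and 0.19. Cfap298 shares 44.2% and Tekt2 20.8% of its exon bases with a gene on the other strand.

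**Figure D3:**
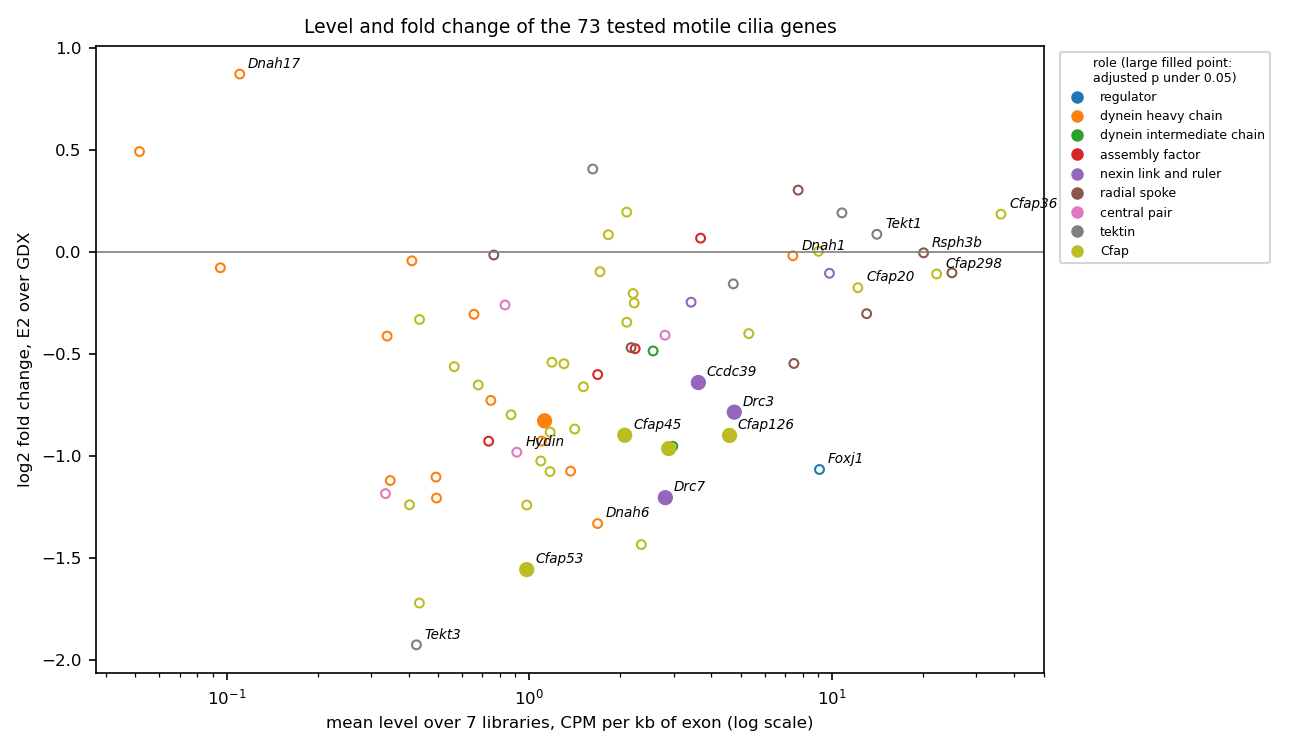
Mean level over 7 libraries in CPM per kb of exon (x axis, log scale) and log2 fold change, E2 over GDX (y axis), of the 73 tested motile cilia genes, coloured by role. The genes at the right edge, Cfap36 to Tekt2, lie between -0.30 and 0.19, Foxj1 lies below them at -1.07, and most genes under 2 CPM per kb lie below 0.

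Within the groups the genes also shared an order of libraries that the comparison of E2 with GDX does not use. GDX replicate 4 was the highest GDX library in 45 of 73 genes (61.6%), against 31.7% of all genes tested, and GDX replicate 2 was the lowest in 37 (50.7%), against 23.0%. E2 replicate 1 was the lowest E2 library in 52 (71.2%), against 31.8%, and E2 replicate 3 the highest in 46 (63.0%), against 33.8%. Not every gene had this order. Ccdc39 and Tekt2 shared none of these positions, Dnah1 shared only the highest GDX library, and Tekt1 only the lowest library of each group.

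Genes outside the symbol rule were read for the same cilium and for the cell type. Over all genes tested 1.33% fell and 2.55% rose. Of 50 further motile cilium genes 48 were tested, 3 fell and none rose, with a median log2 fold change of -0.537. These were Iqcg, at 24.0 CPM in E2 and 34.9 CPM in GDX (-0.54 ± 0.11, edgeR adjusted p = 0.0186), Nek5, a kinase gene, at 1.15 and 3.56 CPM (E2, GDX; -1.62 ± 0.38, 0.0359), and Lrrc34, at 0.269 and 1.56 CPM (E2, GDX; -2.52 ± 0.51, 0.0153). The count was 0 without E2 replicate 1 and 1 without E2 replicate 2 or GDX replicate 1. It was 10, all lower, with DESeq2, which called 725 of all 18282 genes tested lower. The X-box binding factors did not pass. Rfx3 was at 28.9, 24.2 and 26.8 CPM in E2 libraries, against 30.5, 33.3, 30.9 and 42.3 CPM in GDX libraries (-0.36 ± 0.13, adjusted p = 0.174), and Rfx2 had -0.92 ± 0.31 (0.146). Of 46 primary cilium and transport genes 1 rose (2.55% of all genes tested did) and none fell, with a median of -0.0716. That gene was Mchr1, a melanin-concentrating hormone receptor of neuronal cilia, at 20.8 CPM in E2 and 13.5 CPM in GDX (0.63 ± 0.14, edgeR adjusted p = 0.0298), a call lost without any E2 replicate or without GDX replicate 1. The primary cilium list summed to 2189, 2081 and 2133 CPM in E2 libraries, against 2169.5, 2109.6, 2133 and 2245 CPM in GDX libraries, so its groups overlapped where those of the motile cilia genes did not.

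All 8 ependymal markers outside the cilium were above 0 in every library, in a tissue punch that lies against the ventricle wall. The 8 markers summed to 80.5, 134 and 146 CPM in E2 libraries, against 255, 163, 174 and 333 CPM in GDX libraries. In this sum the E2 libraries lay below all GDX libraries, with a ratio of 0.52. Of the 8, 7 had a log2 fold change below 0, against 49.2% of all genes tested. Pltp was the largest of the 8 in every library, at 39.0, 76.8 and 81.8 CPM in E2, against 155.9, 91.6, 96.1 and 202 CPM in GDX. A sum without Pltp was not computed, so how far the ratio of 0.52 rests on that gene was not measured. Rarres2, which encodes chemerin, was at 7.21, 11.9 and 12.02 CPM in E2 libraries, against 22.7, 15.9, 18.3 and 28.2 CPM in GDX libraries (-1.03 ± 0.23, edgeR adjusted p = 0.0356). Tmem212 was at 1.54, 2.97 and 4.39 CPM in E2 libraries, against 6.08, 3.56, 5.77 and 8.68 CPM in GDX libraries, with overlapping groups (-1.02, adjusted p = 0.195). In both genes and in the sum, E2 replicate 1 was lowest and GDX replicate 4 highest, as in Foxj1, Dnah6 and Dnah9. In the wider list of 20 ependymal markers, which includes cilium proteins, 1 rose and 1 fell, against 2.55% and 1.33% of all genes tested. The other 18 did not pass, and the median log2 fold change of the list was -0.833. The rise was Tppp3, at 197 ± 7.26 CPM in E2 (SD, n = 3) and 128 ± 10.6 CPM in GDX (SD, n = 4), a log2 fold change of 0.62 ± 0.08 (adjusted p = 0.000608). Tppp3 was the highest of the 20 in the E2 libraries and in GDX replicates 2 and 3, and Pltp, a lipid transfer protein gene, was higher in GDX replicates 1 (156 CPM, against 124 CPM for Tppp3) and 4 (202 CPM, against 121 CPM for Tppp3). With Tppp3 the 20 markers summed to 324 to 412 CPM in E2 and 347 to 564 CPM in GDX libraries, which overlap, and their log2 ratio was -0.22, against -0.79 without Tppp3 and 0.0223 with GDX replicates 1 and 4 left out. With Tppp3 in it, the direction of that sum therefore rests on GDX replicates 1 and 4. A sum leaving out both Tppp3 and those libraries was not computed.

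Markers of astrocytes, endothelial cells, pericytes and fibroblasts moved with the motile cilia genes, and their part in the result was not tested. The 15 astrocyte markers summed to 2006, 2237 and 2335 CPM in E2 libraries, against 4382, 2526, 2432 and 5396 CPM in GDX libraries. The 12 endothelial markers summed to 269, 414 and 378 CPM in E2 libraries, against 702, 467, 439 and 975 CPM in GDX libraries. The 12 pericyte and fibroblast markers summed to 164, 205 and 198 CPM in E2 libraries, against 431, 352, 226 and 1064 CPM in GDX libraries. In these lists the E2 libraries lay below all GDX libraries and GDX replicates 4 and 1 stood highest. No gene of the 39 passed. The log2 fold change was below 0 for 15 of 15, 12 of 12 and 12 of 12, against 49.2% of all genes tested. At an unadjusted p under 0.05, 7 astrocyte, 8 endothelial and 5 pericyte and fibroblast markers were lower, against 8.88% of all genes tested. DESeq2 called 1400 of all 18282 genes tested. Over all the lists of other cell types it called 16 of 95, 5 higher and 11 lower. By edgeR 5 genes of those lists rose and none fell, against 2.55% and 1.33% of all genes tested. The 5 were the 3 choroid plexus markers given with the other observations, Col25a1 of tanycytes and Lhfpl3 of oligodendrocyte precursors. The 15 tanycyte markers summed to 250 to 297 CPM in E2 and 309 to 787 CPM in GDX libraries, with the defining marker Rax at 0.308 CPM or less in every library. Microglial markers overlapped, at 149.957 to 186 CPM in E2 and 148 to 184 CPM in GDX libraries, and oligodendrocyte markers overlapped, at 2723 to 3268 CPM in E2 and 2944 to 6122 CPM in GDX libraries. Pan-neuronal markers summed to 9166 to 9503 CPM in E2 and 8317 to 9212 CPM in GDX libraries. With GDX replicates 1 and 4 left out, chosen after the data were seen, the summed motile cilia level had a log2 ratio of -0.200, against -0.303 with all libraries, and the 2 GDX libraries left, at 1083 and 1177 CPM, still lay above the 3 E2 libraries.

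**Figure D4:**
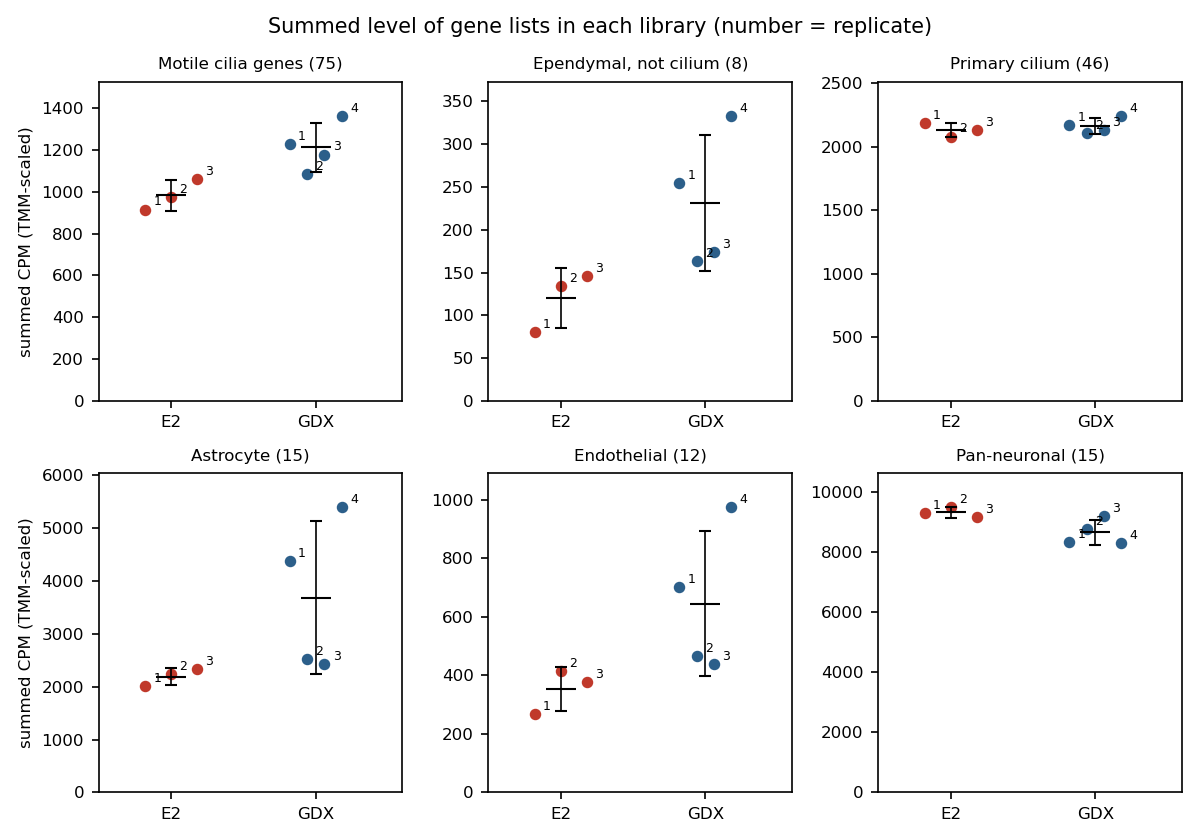
Summed CPM (y axis, from 0) of 6 gene lists in the 3 E2 (red) and 4 GDX (blue) libraries; points are libraries labelled by replicate number, bars are mean and SD. Motile cilia genes, ependymal markers outside the cilium, astrocyte and endothelial markers lie lower in all E2 libraries, while the primary cilium and pan-neuronal lists overlap.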

How the data were processed

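Values came as deposited by the authors, an expected count for every gene in each library; fractions made up 33.1% of the values above 0. The submitters' processing notes name Trimmomatic 0.38, STAR 2.6.0a, RSEM 1.3.0 and mm10, without roles. The gene annotation is not given in the sources used here. Libraries were unstranded with polyA enrichment, per the labels' protocols. Gene symbols, exon lengths and overlaps were taken from GENCODE vM21 (GRCm38), which held 55203 of the 55384 identifiers.

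Each expected count was rounded to a whole number before edgeR 4.0.16 (under R 4.3.3) was run. Genes were kept by filterByExpr (minimum count 10, minimum total 15), scaled by TMM and compared, E2 over GDX, by the quasi-likelihood test with robust dispersions and a prior count of 0.125, adjusted by Benjamini-Hochberg. Since every library was a pool of 4 brains, p-values measure spread between pools. Alternatives were DESeq2 1.42.0, limma-voom (limma 3.58.1), other scalings and low-count filters, a stricter threshold, a replicate block and leaving out libraries. The floor of 3 counts was 0.0818 to 0.101 CPM, covering counting error only. On simulated counts for the 18282 genes of this comparison, 61% of planted 2-fold and 80% of planted 4-fold changes were found, with 8.44% false calls.

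The genes and lists were chosen with earlier results of these data known. Named genes were the 7 the rule names, the genes that passed, and in each role the 3 with most CPM and the largest rise and fall. Markers, the genes of the level ranking and genes singled out for overlap were named after their values were seen.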

Additional observations from a re-analysis of the deposited data

Results flagged for a closer look

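Of 65 values checked in the 4 GDX libraries for a library far from the other 3, 4 stood out, where chance gives about 1 in 20. Spag6l was at 17.26 CPM in GDX replicate 4, with the nearest library at 13.6 CPM and the lowest at 13.1 CPM. Rsph9 was at 51.07 CPM in GDX replicate 3, with the others at 37.3 to 38.2 CPM. Ccdc39 was at 35.72 CPM in GDX replicate 2, with the others at 30.2 to 31.1 CPM. The oligodendrocyte markers summed to 6122 CPM in GDX replicate 1, with the others at 2944 to 3263 CPM. The 4 values fell in 4 different libraries.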

How the results depend on the processing

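All 8 called motile cilia genes kept their direction in every alternative, and none kept its call in all of them. Their number was 21 with no low-count filter, 21 with DESeq2, 5 with the replicate number as a block, 1 at an adjusted p under 0.01, 3 without GDX replicates 1 and 4 together (chosen after the data were seen) and 1 to 8 with 1 library left out. Same-numbered libraries did not deviate together (r = -0.0591, -0.0621 and -0.076), and no E2 library correlated best with its own number. With so few libraries in each group, such correlations cannot exclude a pairing. Over all genes, 710 changed, against 1609 with no filter, 1400 with DESeq2, 1109 with limma-voom, 360 at 0.01, 612 with the block and 364 to 974 with 1 library left out. The share of rises, 65.8%, was 52.2% with library sizes alone, 44.9% with no filter and 48.2% with DESeq2. The primary cilium count of 1 was 0 with library sizes alone, at 0.01 and without GDX replicates 1 and 4, 2 with no filter or DESeq2 and 0 to 1 with 1 library left out. The ependymal count of 2 was 10 with no filter, 6 with DESeq2, 4 with limma-voom, 1 with the block or at 0.01 and 1 to 5 with 1 library left out. Other cell type markers changed, 5, were 16 with no filter or DESeq2, 9 without GDX replicates 1 and 4 and 4 to 8 with 1 library left out. The count of 3 further motile cilium genes was 9 with no filter, 10 with DESeq2, 5 with limma-voom, 0 at 0.01, 1 without GDX replicates 1 and 4 and 0 to 3 with 1 library left out. The summed ependymal log2 ratio of -0.22 was -0.79 without Tppp3 and 0.0223 without GDX replicates 1 and 4. The summed motile cilia log2 ratio stayed between -0.36 and -0.20. Signs turned for genes near 0. Cfap97 was at -0.00342 with DESeq2 size factors, -0.0584 with library sizes alone, -0.00213 with no filter, -0.00390 with a 5 CPM minimum, -0.00330 with DESeq2 and -0.0635 to 0.0588 with 1 library left out. Dnah1 was at 0.000920 with the block and Rsph3b at 0.0391 with limma-voom. With 1 library left out, Dnaaf5 ranged over -0.0604 to 0.169, Dnah1 -0.0645 to 0.0442, Rsph3b -0.0394 to 0.0681, Rsph9 -0.147 to 0.0229, Tekt1 -0.00552 to 0.151 and Tekt5 -0.311 to 0.0204. The cause was not tested for any of these. Depth limits genes under about 1 CPM, where Tekt3 reached the floor.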

Other observations

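Among choroid plexus markers, which mark the other ciliated lining of the ventricles, a few rose in E2 and the median log2 fold change was near 0. The 12 markers summed to 508, 455 and 425 CPM in E2 libraries, against 276, 264, 264 and 322 CPM in GDX libraries. In this sum the E2 libraries lay above all GDX libraries, with a ratio of 1.65, and Enpp2 and Prlr had the highest means in both groups. Of the 12, 9 were tested, 3 rose in E2 and none fell, against 2.55% and 1.33% of all genes tested. Of the 9, 5 had a log2 fold change below 0, against 49.2% of all genes tested, and the median was -0.0509. Ttr, which encodes transthyretin, was at 12.6, 15.03 and 9.74 CPM in E2 libraries, against 2.78, 3.96, 4.51 and 2.90 CPM in GDX libraries (log2 fold change 1.81 ± 0.23, edgeR adjusted p = 0.000704). Enpp2, which encodes autotaxin, averaged 253 CPM in E2 and 132 CPM in GDX (0.94 ± 0.11, 0.000555), and the prolactin receptor gene Prlr 114 CPM in E2 and 69.4 CPM in GDX (0.71 ± 0.13, 0.01). The choroid plexus markers Folr1, Aqp1, Kcne2 and Slc4a5 stayed at or below 1.009 CPM in every library, and Folr1 had a log2 fold change of -0.77 (adjusted p = 0.692). Of the other tested markers, Kl had a log2 fold change of 0.23 (adjusted p = 0.586), Clic6 -0.08 (0.846), Otx2 -0.09 (0.925), Sostdc1 -0.45 (0.71) and Aqp1 -0.05 (0.985).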
